A study of Homo sapiens with 8 samples.

Results

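Cadherins and protocadherins are the calcium-dependent adhesion proteins by which neighbouring cells hold and recognise each other, and their transcripts were examined here in oligodendrocyte progenitor cells (OPCs) seeded on 3 coatings. The members are all protein-coding genes whose symbol is CDH followed only by a number, or begins with PCDH, and whose estimated read counts sum to at least 80 over the 8 libraries. Of 89 such genes in the annotation 77 met the read minimum, against 18201 genes tested in all, and all 77 passed the filter on low counts. The cells were differentiated from the established human embryonic stem cell line H9, and SOX10 was not overexpressed. They were kept for 2 days in OPC medium on Matrigel (a basement membrane extract, the control), on VN (recombinant vitronectin) or on VNP2 (an engineered vitronectin-derived peptide with an RGD motif, fused to a mussel adhesive protein). The libraries of polyadenylated RNA used here were 2 on Matrigel, 3 on VN and 3 on VNP2. The study describes 3 samples for each coating, but on Matrigel only replicates 2 and 3 were available here. All came from the same line, and whether the replicates were separate differentiations is not given in the sources used here, so p-values measure the spread between these libraries.

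The libraries held 37997896 to 39429453 estimated counts. Levels are given in TPM (transcript abundance per library, scaled to a fixed total), which corrects for transcript length and can be compared between genes. TPM lacks the further normalisation between libraries used for fold changes, so small differences between coatings can depart from those in counts. PCDHGB4, for example, had a mean of 30.6 TPM on Matrigel and 31 on VN, but mean normalised counts of 3246 and 3097. Differences between coatings are given as log2 fold changes of counts from an edgeR quasi-likelihood fit, with Benjamini-Hochberg adjustment over all 18201 genes, and genes with an adjusted p under 0.05 are said to be called. The label of the cells was checked against OPC markers. OLIG1 had a mean normalised count of 1524 on Matrigel and OLIG2 of 1704, whereas SOX10 and GPR17 were too low to be tested. The summed level of the 10 OPC markers was 225 to 228 on Matrigel, 292 to 306 on VN and 319 to 343 on VNP2, and that of 10 neuronal markers was 895 to 931 on Matrigel, 1008 to 1064 on VN and 1138 to 1162 on VNP2, in TPM. VN replicate 1 lay somewhat apart from the other VN libraries. Over 12996 genes with a mean normalised count of at least 100, the SD of its log2 ratios was 0.236 to VN replicate 2 and 0.236 to VN replicate 3, against 0.174 between those, 0.21 on Matrigel and 0.182 to 0.207 on VNP2. These are bulk RNA samples, in which fewer cells of a type and less RNA per cell cannot be told apart.

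In classical cadherins, extracellular repeats bind the same cadherin on the next cell while the cytoplasmic tail holds beta-catenin and p120-catenin, which link it to actin through alpha-catenin. CDH2 (N-cadherin) is the main cadherin of neuroepithelial and glial progenitor cells, and CDH1 (E-cadherin) and CDH3 (P-cadherin) are those of epithelia. Type II classical cadherins differ in the pocket used for binding and mark groups of neurons and mesenchymal cells. Protocadherins have more repeats and do not bind beta-catenin. Delta protocadherins are separate genes that act in axon growth and cell sorting. Clustered protocadherins lie in tandem arrays named alpha, beta and gamma, and each neuron uses only some of them, by which it is thought to tell its own branches from those of others.

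The 29 non-clustered members comprised the type I cadherins CDH1, CDH2, CDH3 and CDH4, the type II cadherins CDH5, CDH6, CDH7, CDH8, CDH9, CDH10, CDH11, CDH12, CDH18, CDH22 and CDH24, and CDH13, CDH23 and CDH26. CDH13 (T-cadherin) is anchored in the membrane by lipid without a cytoplasmic tail, and CDH23 forms the tip links of hair cells together with PCDH15. The non-clustered protocadherins were PCDH1, PCDH7, PCDH9 and PCDH11X of the delta-1 group, PCDH8, PCDH10, PCDH17, PCDH18 and PCDH19 of the delta-2 group, and PCDH15 and PCDH20. The 48 clustered members on chromosome 5 were 11 alpha genes (PCDHA4, PCDHA6, PCDHA7, PCDHA8, PCDHA9, PCDHA10, PCDHA11, PCDHA12, PCDHA13, PCDHAC1 and PCDHAC2), all 16 beta genes (PCDHB1 to PCDHB16) and 21 gamma genes. The gamma genes were PCDHGA1, PCDHGA2, PCDHGA3, PCDHGA4, PCDHGA5, PCDHGA6, PCDHGA8, PCDHGA9, PCDHGA10, PCDHGA11, PCDHGA12, PCDHGB1, PCDHGB2, PCDHGB3, PCDHGB4, PCDHGB5, PCDHGB6, PCDHGB7, PCDHGC3, PCDHGC4 and PCDHGC5. Below the read minimum were CDH15, CDH16, CDH17, CDH19, CDH20, PCDH11Y, PCDH12, PCDHA1, PCDHA2, PCDHA3, PCDHA5 and PCDHGA7. CDH19, a cadherin of the Schwann cell lineage, had 22 estimated counts over all libraries.

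CDH2 was by far the most abundant member. Its level was 359.5 and 363 TPM (Matrigel), 302, 325 and 311 TPM (VN) and 300.2, 302 and 301 TPM (VNP2). It made up 62.6 to 67.9% of the TPM of the 18 CDH members in each library. Its lowest library stood above the highest library of any other member. The type II cadherins CDH11, at a mean of 58.1 TPM, and CDH6, at 47.8 TPM, came next, followed by the clustered genes PCDHGB6 at 45 TPM and PCDHGC3 at 39.9 TPM. From CDH11 downwards, the ranges of neighbours over all libraries overlapped as far as PCDHA12, the member at rank 23 with 7.86 TPM. Ranks in that span need not hold in every library, although CDH11 stood above CDH6 in each of them. In all, 16 members reached a mean of 10 TPM, 33 lay from 1 to under 10 TPM, and 28 lay under 1 TPM. CDH1 was among the last, at 0.396 TPM, as were CDH13 at 0.716 TPM and PCDH15 at 0.458 TPM.

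**Figure D1:**
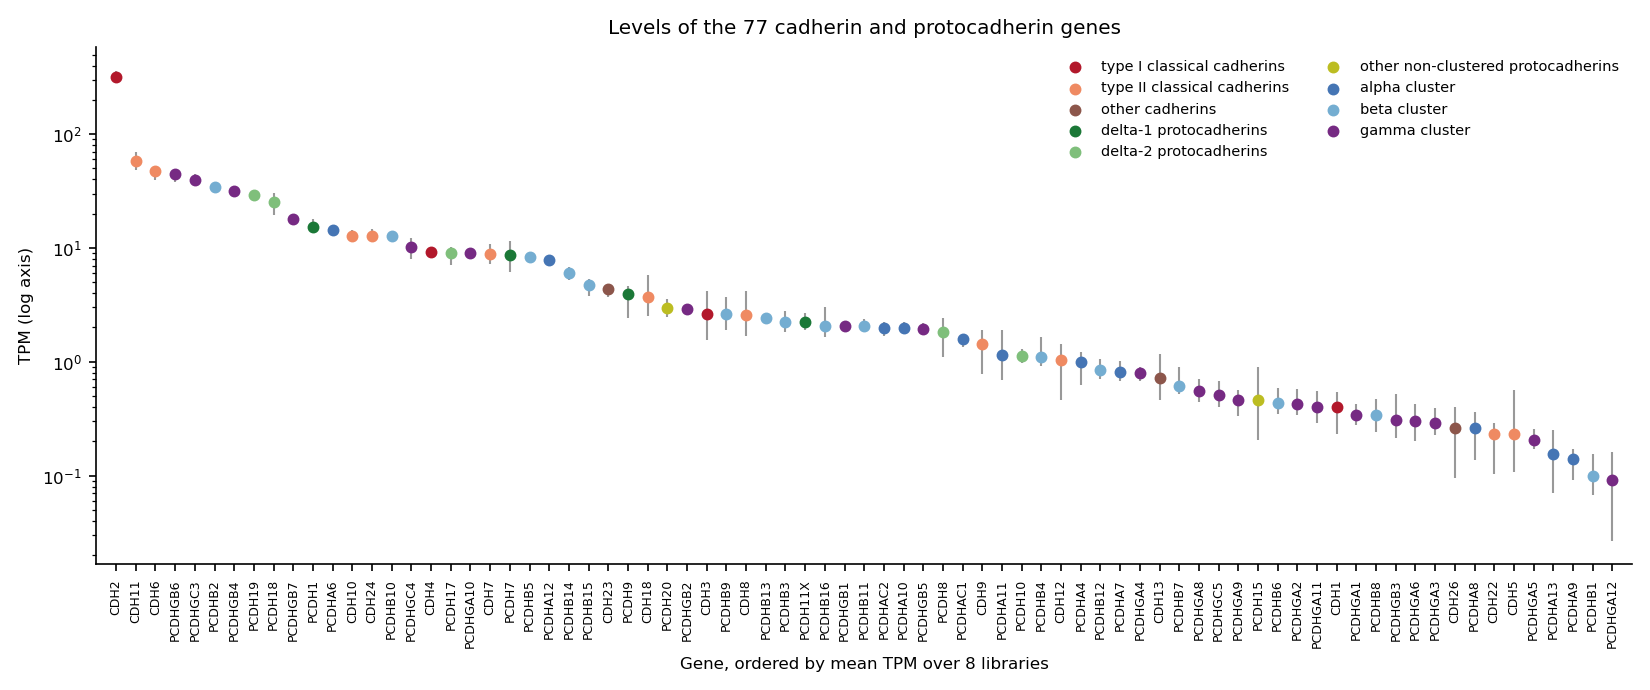
Mean TPM over the 8 libraries (points, log axis) of each of the 77 members in descending order, coloured by class, with lines from the lowest to the highest library. CDH2 stands alone at the top, and the highest clustered genes lie among the highest non-clustered ones.

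Which members differed between the coatings was tested for each pair. On VN against Matrigel, 16 of the 77 members were called, 7 higher and 9 lower, which is 20.8% of the members against 15.3% of all genes tested (5.66% higher and 9.6% lower). On VNP2 against Matrigel, 17 were called, 9 higher and 8 lower, or 22.1% against 16.6% of all genes (7.44% higher and 9.13% lower). On VNP2 against VN, 6 were called, 5 higher and 1 lower, or 7.79% against 5.1% of all genes (3.09% higher and 2.01% lower). The shares of the family were somewhat above those of all genes, and this difference was not tested. Counts called in the classes and marker lists below may be read against the same shares of all genes. The first 2 of these comparisons share the Matrigel libraries. Median log2 fold changes of the members were -0.01, 0.02 and 0.02, beside 0.00436, 0.00243 and 0.00073 over all genes.

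The calls fell mostly on the non-clustered genes. Of these 29 genes 16, 14 and 5 were called in the 3 comparisons, in the order given above. Of the 48 clustered genes 0, 3 and 1 were called by edgeR, and 3, 5 and 5 had an unadjusted p under 0.05. Among members with a mean normalised count of at least 100, 12, 10 and 4 of 20 non-clustered genes and 0, 2 and 1 of 24 clustered genes were called, beside 19.5%, 20.5% and 6.23% of all genes at that level. Among the clustered genes the median absolute log2 fold change was 0.15 on VN and 0.17 on VNP2 against Matrigel, compared with 0.35 and 0.35 among the non-clustered genes and 0.15 and 0.14 over all genes. The difference between clustered and non-clustered genes was not tested.

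**Figure D2:**
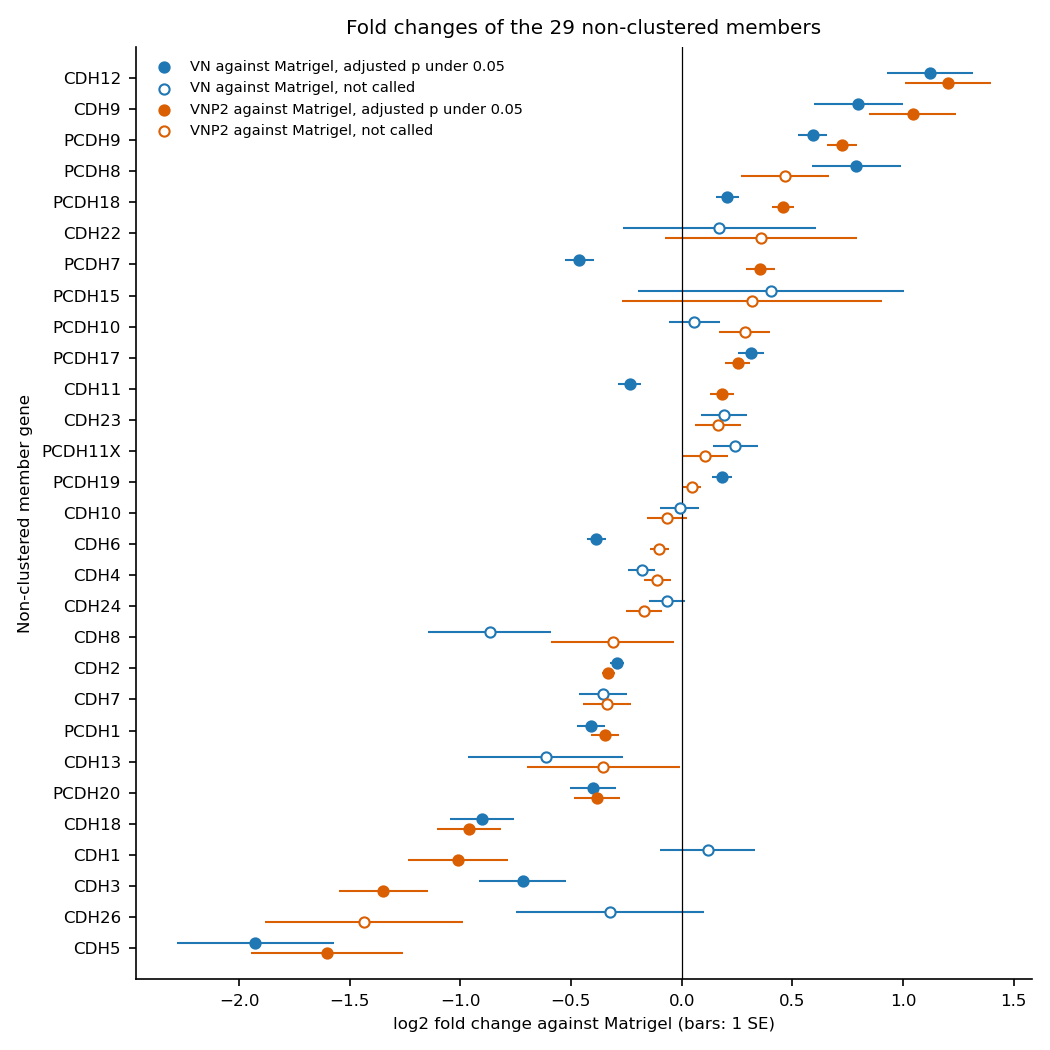
Log2 fold change against Matrigel (x axis, bars of 1 SE) of the 29 non-clustered members (y axis) on VN and on VNP2, filled where the adjusted p is under 0.05. CDH5, CDH3 and CDH18 lie far to the left and CDH12 and CDH9 far to the right on both coatings, while PCDH7 and CDH11 lie on opposite sides of 0.

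CDH2 (chr18:27950966-28177446, minus strand, GRCh38) fell on both vitronectin coatings. Its normalised counts, adjusted for library size and transcript length, were 30534 and 30611 (Matrigel), 24554, 25760 and 24614 (VN) and 24316, 24416 and 24204 (VNP2). Both Matrigel libraries stood above all 6 others. The log2 fold change was -0.29 (SE 0.031, adjusted p = 0.000157) on VN and -0.33 (SE 0.031, adjusted p = 4.48e-05) on VNP2. Between VNP2 and VN it was -0.04 (SE 0.028, adjusted p = 0.49), with no call, although the VNP2 libraries all lay under those of VN. The call against Matrigel held whichever library was left out, with changes of -0.31 to -0.28 on VN and -0.33 to -0.32 on VNP2. CDH2 is also made by neural progenitors, mesenchymal cells and neurons. Of the tested radial glia and neural progenitor markers, NES had a log2 fold change of -0.28 on VN and -0.33 on VNP2, VIM of -0.46 and -0.24, and SOX2 of 0.15 and 0.06. Over that list 3 of 8 rose and 2 fell on VN, and 2 rose and 2 fell on VNP2 against Matrigel, with a summed level of 3644 to 3712 on Matrigel, 3145 to 3205 on VN and 3423 to 3468 on VNP2 in TPM, while PAX6 was too low to be tested. The part of these cells in the fall of CDH2 was not tested.

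The other type I cadherins were far lower. CDH3 (chr16:68636189-68722616, plus strand) had normalised counts of 306 and 296 (Matrigel), 233, 191 and 128 (VN) and 117, 109 and 128 (VNP2). All Matrigel libraries lay above the others, and VN replicate 1 lay nearest to them. The fit gave a log2 fold change of -0.72 (SE 0.20, adjusted p = 0.0343) on VN and -1.35 (SE 0.20, adjusted p = 0.00108) on VNP2. The call on VN was lost without Matrigel replicate 2, Matrigel replicate 3 or VN replicate 2, with changes of -0.93 to -0.50 over the libraries left out, and in the fit of that pair alone, and the call on VNP2 was kept throughout. CDH1 (chr16:68737225-68835548, plus strand), the epithelial cadherin, differed in pattern from CDH3. Its normalised counts were 61.5 and 43 (Matrigel), 53.9, 57.4 and 59.1 (VN) and 25.4, 26.8 and 25.4 (VNP2), so that Matrigel and VN overlapped and all VNP2 libraries lay below both. In the fit its log2 change was -1.01 (SE 0.23, adjusted p = 0.0115) on VNP2 against Matrigel and -1.13 (SE 0.20, adjusted p = 0.01) on VNP2 against VN. On VN against Matrigel it was 0.12 (SE 0.21, adjusted p = 0.76). The call against Matrigel was lost without Matrigel replicate 2, at changes of -1.24 to -0.73 over the libraries left out, whereas that against VN was kept. CDH4 (R-cadherin), which is expressed in retina and brain, had normalised counts of 1713 and 1583 (Matrigel), 1513, 1372 and 1476 (VN) and 1513, 1487 and 1583 (VNP2), and its log2 fold change on VN was -0.18 (SE 0.061, adjusted p = 0.0712).

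Markers of epithelial and pluripotent cells were set beside these cadherins. Of 7 tested epithelial markers other than cadherins, 3 fell on VN and 6 on VNP2 against Matrigel, and none rose, while on VNP2 against VN 1 rose and 2 fell. Their summed level was 166 to 177 on Matrigel, 97.6 to 100.5 on VN and 105 to 109 on VNP2 in TPM, mostly from KRT8 and KRT18. The sum was lowest on VN, but the median log2 fold change of the 7 tested markers was lower on VNP2. Against Matrigel this median was -0.36 on VN and -1.10 on VNP2. On VNP2 against VN it was -0.84. CLDN6, a claudin of early epithelium, had a log2 fold change of -0.36 on VN and -2.02 on VNP2, and ESRP1, an epithelial splicing factor, of 0.73 and -1.23. EPCAM, which marks epithelial and pluripotent cells, had mean normalised counts of 153, 148 and 139 with no call, and GRHL2 was too low to be tested. Undifferentiated stem cells also carry CDH1. Of 8 pluripotency markers 3 fell and 1 rose on VNP2 against Matrigel, and 3 fell against VN. Of these, POU5F1 had mean normalised counts of 125 on Matrigel, 153 on VN and 51.9 on VNP2. The summed level of the list was 40 to 42.6 on Matrigel, 45 to 50.5 on VN and 41.2 to 43.4 on VNP2 in TPM. Its median log2 fold change was 0.30 on VN and -0.78 on VNP2 against Matrigel, and -0.85 on VNP2 against VN. The single marker genes were named after their values were seen. The part of either cell type in the values of CDH1 and CDH3 was not tested.

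CDH11, CDH6 and PCDH7 were lowest on VN. PCDH7 (chr4:30720415-31146805, plus strand), a delta-1 protocadherin, had normalised counts of 977 and 999 (Matrigel), 772, 695 and 686 (VN) and 1230, 1269 and 1296 (VNP2). No 2 coatings overlapped. It fell on VN by 0.46 on the log2 scale (SE 0.065, adjusted p = 0.00104) and rose on VNP2 by 0.36 (SE 0.065, adjusted p = 0.00364). Between VNP2 and VN the log2 fold change was 0.82 (SE 0.059, adjusted p = 4.52e-05), the largest rise of any member in that comparison. All 3 calls were kept in every alternative and with every library left out. PCDH7 is carried by progenitors, neurons and some mesenchymal cells, and it binds the phosphatase PP1 through its tail.

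CDH6 (K-cadherin, chr5:31193750-31329146, plus strand), a type II cadherin of kidney, neural crest and parts of the brain, had normalised counts of 6531 and 6415 (Matrigel), 4746, 5157 and 4956 (VN) and 6123, 5881 and 6104 (VNP2). The VN libraries lay below all others, and the VNP2 libraries just below those on Matrigel. The log2 fold change was -0.39 (SE 0.042, adjusted p = 0.000179) on VN against Matrigel, -0.10 (SE 0.042, adjusted p = 0.14) on VNP2 against Matrigel and 0.28 (SE 0.038, adjusted p = 0.00167) on VNP2 against VN. CDH11 (OB-cadherin, chr16:64943753-65126112, minus strand), a type II cadherin of mesenchyme, neural crest and glial progenitors, had normalised counts of 4329 and 4393 (Matrigel), 3916, 3485 and 3716 (VN) and 5183, 4821 and 4841 (VNP2), again without overlap between coatings. This was a log2 fold change of -0.24 (SE 0.053, adjusted p = 0.0144) on VN, 0.18 (SE 0.053, adjusted p = 0.0418) on VNP2 and 0.42 (SE 0.048, adjusted p = 0.000711) on VNP2 against VN.

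For CDH11 the fall on VN depended on the correction for transcript length. Its summed estimated counts before that correction were 4089 and 4060 (Matrigel), 4068, 4178 and 4206 (VN) and 4734, 4568 and 4540 (VNP2), so Matrigel and VN overlapped. The average effective length of the gene's transcripts was 3132 and 3055 bases (Matrigel), 3374, 3902 and 3739 (VN) and 2960, 3108 and 3035 (VNP2). Of its 19 annotated transcripts, the 14 under 1000 bases held 25.6 and 26.8% of its TPM (Matrigel), 17.9, 10.9 and 18.1% (VN) and 29.4, 26.8 and 26.7% (VNP2). Without length offsets the log2 fold change on VN against Matrigel was -0.01 (SE 0.039, adjusted p = 0.932), and that on VNP2 against VN was 0.14 (adjusted p = 0.0453). With offsets, the call on VN was also lost without either Matrigel library, and the call on VNP2 against Matrigel with any of its 5 libraries left out, at -0.27 to -0.19 and 0.15 to 0.20. For CDH6 the changes without offsets were -0.24 on VN against Matrigel (adjusted p = 0.0245) and 0.19 on VNP2 against VN (adjusted p = 0.0828), the latter no longer called. For PCDH7 the length correction changed no call.

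Mesenchymal and neural crest cells, which carry CDH11 and CDH6, were looked for by their markers. Of 11 mesenchymal markers 3 rose and 2 fell on VN, and 5 rose and 2 fell on VNP2, with a summed level of 548 to 557 on Matrigel, 613 to 645 on VN and 549 to 577 on VNP2 in TPM. The sum was highest on VN, but the median log2 fold change of the 11 markers there was negative. Against Matrigel this median was -0.11 on VN and 0.28 on VNP2. On VNP2 against VN it was -0.04. Of 10 neural crest markers 7 could be tested, of which 1 rose and 1 fell on VN, and 2 rose and 2 fell on VNP2. SOX10, FOXD3 and PAX3 were too low. The summed level of the crest list was 208 to 210.5 on Matrigel, 219 to 239.8 on VN and 217 to 220.0 on VNP2 in TPM, mainly from EDNRB and SOX9, which neural progenitors also express. The median log2 fold change of the 7 tested crest markers was 0.37 on VN and 0.29 on VNP2 against Matrigel. On VNP2 against VN it was -0.09. The part of either cell type in the values of CDH11 and CDH6 was not tested.

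**Figure D3:**
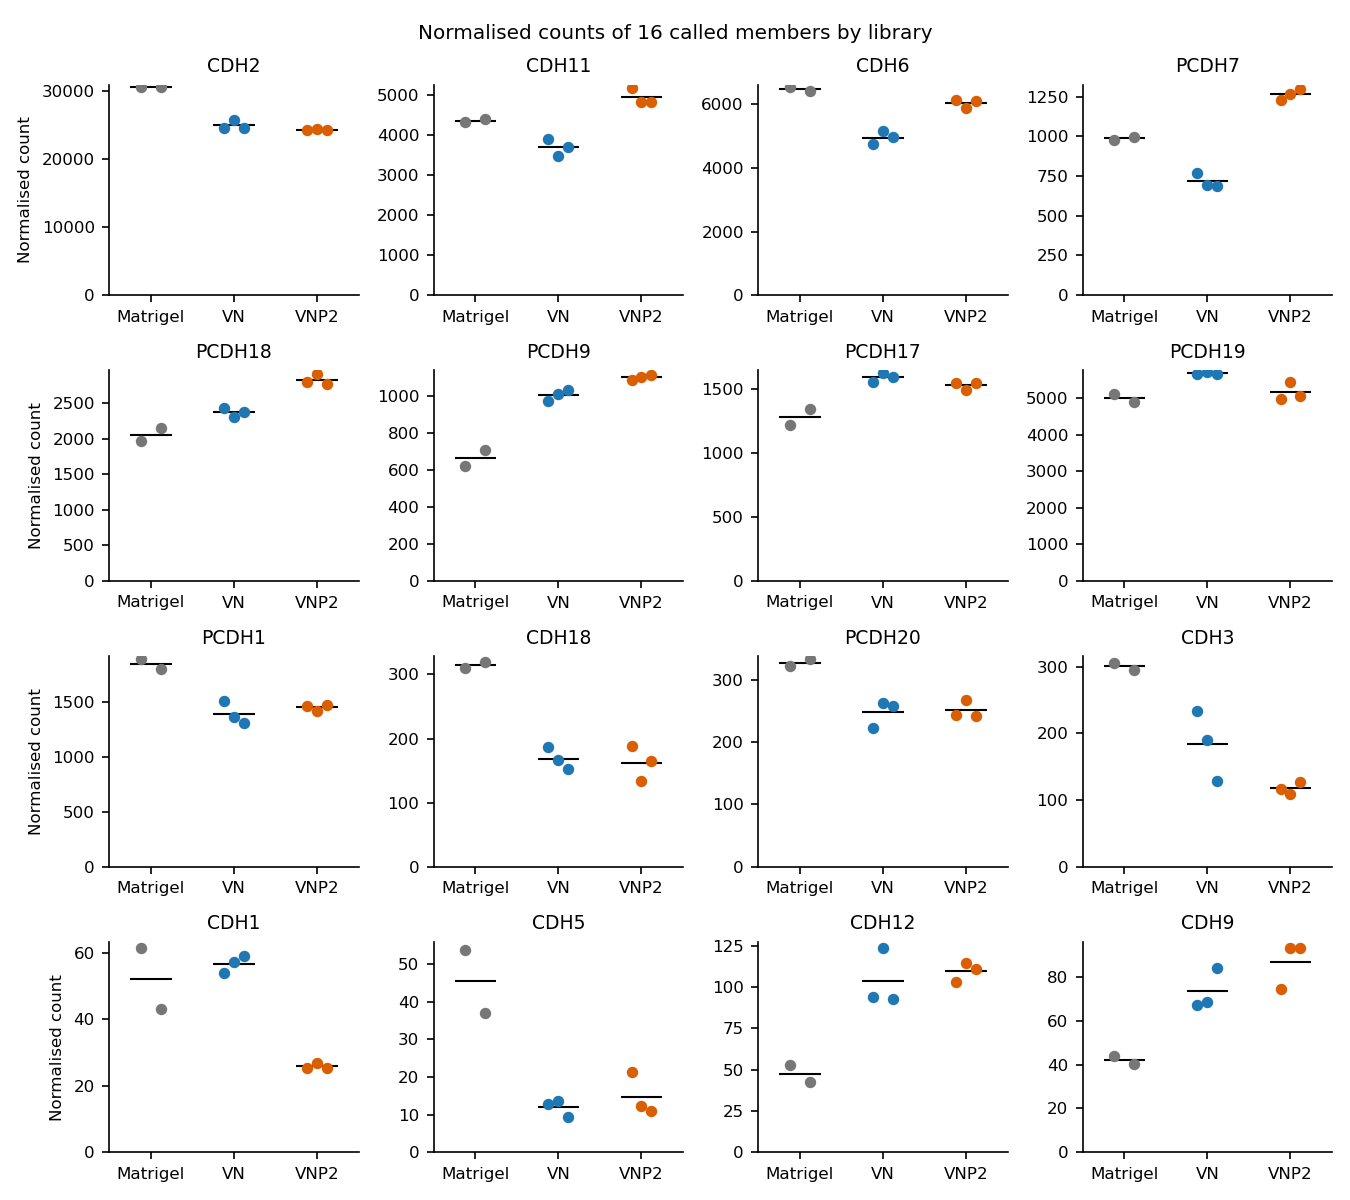
Normalised counts (y axes from 0) of 16 called members in each library (points) on Matrigel, VN and VNP2, with the mean as a line. CDH2, PCDH1, CDH18 and PCDH20 are highest on Matrigel, PCDH9, CDH12 and CDH9 lowest there, and PCDH7, CDH11 and CDH6 lowest on VN.

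Among the remaining type II cadherins, both directions occurred. CDH18 (chr5:19472951-20575873, minus strand), a cadherin of brain, fell on both vitronectin coatings. It had normalised counts of 309 and 319.5 (Matrigel), 187, 166 and 152 (VN) and 188, 134 and 164 (VNP2), with both Matrigel libraries above the rest. On the log2 scale its change was -0.90 (SE 0.15, adjusted p = 0.00236) on VN and -0.96 (SE 0.15, adjusted p = 0.00119) on VNP2, and both calls held with any library left out. Its neighbours on chromosome 5, CDH12 and CDH9, are neuronal cadherins and rose. Both lie under a mean normalised count of 100 and are named after their values were seen. CDH12 (chr5:21750673-22853622, minus strand) had counts of 52.9 and 42.4 (Matrigel), 94.1, 123 and 92.7 (VN) and 103, 115 and 111 (VNP2), and its log2 fold change was 1.12 (SE 0.19, adjusted p = 0.00371) on VN and 1.20 (SE 0.19, adjusted p = 0.00181) on VNP2. Only the call on VN was lost with a library left out, Matrigel replicate 3, at changes of 0.97 to 1.29. CDH9 (chr5:26880600-27121150, minus strand) had counts of 43.8 and 40.1 (Matrigel), 67, 68.7 and 84 (VN) and 74.2, 93.2 and 93 (VNP2), with log2 fold changes of 0.80 (SE 0.20, adjusted p = 0.0225) and 1.04 (SE 0.20, adjusted p = 0.00452). Its call on VN was lost without either Matrigel library, without VN replicate 3 and without length offsets (0.46, adjusted p = 0.0636), and its changes ranged from 0.69 to 0.87 over the libraries left out. CDH10, which lies between CDH12 and CDH9 and is the most abundant of these 4 at 12.7 TPM, had counts of 885 and 985 (Matrigel), 820.3, 1017 and 952 (VN) and 873, 912 and 892 (VNP2) and was not called in any comparison.

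CDH5 (VE-cadherin, chr16:66366622-66404786, plus strand), the cadherin of endothelial junctions, was near the bottom of the range and gave the largest fold change. Its counts were 53.7 and 37.1 (Matrigel), 12.8, 13.7 and 9.46 (VN) and 21.3, 12.2 and 11 (VNP2), with both Matrigel libraries above all others. The log2 fold change was -1.93 (SE 0.36, adjusted p = 0.00535) on VN and -1.60 (SE 0.34, adjusted p = 0.00959) on VNP2. Both calls were lost without Matrigel replicate 2, the higher of the pair, with changes of -2.16 to -1.63 on VN and -1.96 to -1.31 on VNP2 over the libraries left out. Of 8 other endothelial markers PECAM1 and VWF were too low to be tested, VWF staying under 0.05 TPM in every library, and of the other 6 only TEK was called, lower on both coatings and at -1.36 on VNP2. The summed level of the list was 36.7 to 38.1 on Matrigel, 33.8 to 41.1 on VN and 36 to 38.3 on VNP2 in TPM. CDH5 is outside the rule for named genes because of its low count and was chosen after its values were seen. CDH7 and CDH8 had log2 fold changes of -0.35 and -0.87 on VN, with adjusted p = 0.0522 and 0.0607, while CDH22 and CDH24 were not called in any comparison. CDH13 had counts of 94.8 and 47 (Matrigel), 35.7, 40.9 and 61.9 (VN) and 60.5, 65.7 and 39.7 (VNP2), which overlapped between coatings, and log2 fold changes of -0.61 (SE 0.35, adjusted p = 0.277) on VN and -0.35 (SE 0.35, adjusted p = 0.56) on VNP2. CDH26 had counts of 19.9 and 19.2 (Matrigel), 14.2, 20.2 and 13.1 (VN) and 11.7, 4.89 and 5.86 (VNP2), and its log2 fold change on VNP2 was -1.44 (SE 0.45, adjusted p = 0.0536). CDH23 had a log2 fold change of 0.19 (SE 0.10, adjusted p = 0.245) on VN.

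Of the 9 delta protocadherins, 5 rose and 2 fell on VN against Matrigel, and 4 rose and 1 fell on VNP2. PCDH9 (chr13:66302834-67230445, minus strand), a delta-1 protocadherin of cortical neurons and glial progenitors, had normalised counts of 624 and 709 (Matrigel), 971, 1011 and 1030 (VN) and 1089, 1103 and 1115 (VNP2). Both Matrigel libraries lay below all others, and the VNP2 libraries lay above those on VN. The corresponding log2 change was 0.59 (SE 0.067, adjusted p = 0.000246) on VN and 0.73 (SE 0.067, adjusted p = 4.08e-05) on VNP2, and neither call was lost in any alternative. PCDH1 (chr5:141853111-141879246, minus strand), the delta-1 protocadherin of airway epithelium, went the other way. Its counts were 1887 and 1799 (Matrigel), 1505, 1359 and 1303 (VN) and 1466, 1415 and 1467 (VNP2), with log2 fold changes of -0.41 (SE 0.064, adjusted p = 0.00196) and -0.35 (SE 0.064, adjusted p = 0.00394), of which the call on VNP2 was lost without Matrigel replicate 2, at -0.38 to -0.31. PCDH11X was not called, with a log2 fold change of 0.24 (SE 0.10, adjusted p = 0.142) on VN, and its reads can be shared with its near copy on the Y chromosome.

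Of the delta-2 group, which recruits the WAVE complex to cell contacts, 4 of 5 members rose on VN and 2 on VNP2 against Matrigel. Of all genes tested, 5.66% and 7.44% were called higher in these comparisons. Each of the 4 calls on VN was lost in some fit with a library left out. PCDH18 (chr4:137518918-137532494, minus strand) had normalised counts of 1966 and 2144 (Matrigel), 2430, 2308 and 2375 (VN) and 2794, 2911 and 2760 (VNP2), and no coatings overlapped. The fit gave a log2 fold change of 0.21 (SE 0.051, adjusted p = 0.0223) on VN, 0.46 (SE 0.051, adjusted p = 0.000157) on VNP2 and 0.25 (SE 0.045, adjusted p = 0.00964) on VNP2 against VN. The call on VN was lost without Matrigel replicate 2 or VN replicate 3, at 0.15 to 0.27, and in the fit of that pair alone. PCDH17 (chr13:57631810-57729311, plus strand), which controls contacts between axons, had counts of 1221 and 1349 (Matrigel), 1561, 1630 and 1598 (VN) and 1550, 1492 and 1550 (VNP2). Its log2 fold change was 0.31 (SE 0.057, adjusted p = 0.00466) on VN and 0.25 (SE 0.057, adjusted p = 0.0117) on VNP2, and both calls were lost without Matrigel replicate 2, at 0.25 to 0.39 and 0.19 to 0.33. PCDH19 and PCDH8 were chosen after their values were seen. PCDH19 (chrX:100291644-100410273, minus strand), the gene of a female-limited epilepsy and a partner of CDH2, had counts of 5121 and 4904 (Matrigel), 5664, 5732 and 5670 (VN) and 4980, 5454 and 5077 (VNP2) and a log2 fold change of 0.18 (SE 0.045, adjusted p = 0.0209) on VN, a call lost in 4 of the 5 fits with a library left out (only leaving out VN replicate 1 kept it), at 0.15 to 0.22. PCDH8 had counts of 59 and 73.9 (Matrigel), 127, 107 and 109 (VN) and 92.1, 109 and 75.2 (VNP2) and a log2 fold change of 0.79 (SE 0.20, adjusted p = 0.0243) on VN, a call lost without either Matrigel library, at 0.63 to 0.95, without length offsets (0.41, adjusted p = 0.103) and with the replicate number as a block (0.74, adjusted p = 0.0554). PCDH10 was not called, at 0.29 (SE 0.12, adjusted p = 0.129) on VNP2.

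PCDH20 (chr13:61409685-61415522, minus strand) fell. Its counts were 322 and 332 (Matrigel), 223, 263 and 257 (VN) and 243, 268 and 242 (VNP2), with log2 fold changes of -0.40 (SE 0.10, adjusted p = 0.0258) on VN and -0.38 (SE 0.10, adjusted p = 0.0292) on VNP2. The call on VN was lost without either Matrigel library, at -0.44 to -0.33, and in the fit of that pair alone, and that on VNP2 was lost without either Matrigel library, VNP2 replicate 1 or VNP2 replicate 3, at -0.43 to -0.35, in DESeq2 (-0.38, adjusted p = 0.0608) and with the replicate number as a block (-0.33, adjusted p = 0.0607). PCDH15, a protocadherin of OPCs in brain and of hair cells, was low. Its counts were 27 and 18.8 (Matrigel), 21.9, 29.1 and 39.9 (VN) and 23.3, 55.9 and 12.8 (VNP2), which overlapped throughout, with a log2 fold change of 0.40 (SE 0.60, adjusted p = 0.704) on VN and 0.32 (SE 0.59, adjusted p = 0.781) on VNP2 and no call. Neuronal and OPC markers were set beside the members that rose. Of 10 neuronal markers 5 rose on VN and 8 on VNP2 against Matrigel and none fell, and OPC markers rose in 3 and 6 of 8 tested. Among all genes tested, 5.66% and 7.44% were called higher. PCDH9, PCDH17, PCDH18, CDH12 and CDH9 are expressed by neurons or OPCs, and the part of a change in cell composition in their rise was not tested. Not all members described above as expressed in brain, neurons or OPCs rose. CDH18 fell on both coatings, PCDH7 fell on VN and rose on VNP2, and CDH4 and PCDH15 were not called.

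In the clustered protocadherins a few genes carried most of the level, and they were the same in every library. In alpha and gamma genes, a separate promoter and a large variable exon for each gene are spliced to 3 exons shared by the cluster, whereas beta genes are single exons. Estimates for single genes rest on how Salmon divides reads of the shared exons and of near-identical copies, so each cluster was also tested as a sum. The counts summed here were 0.464 of those in the authors' normalised table for PCDHAC2, whose level is therefore understated, and 0.959 to 1 for the other 76 members. The alpha sum lacks these PCDHAC2 counts too, and the shares of the main alpha genes given next may be overstated. Of the alpha cluster's TPM, PCDHA6 held 45.8% (44 to 47.4% over the libraries) and PCDHA12 held 24.9% (24 to 26.6%). Both kept their rank in all 8 libraries. Of 15 alpha genes, PCDHA1, PCDHA2, PCDHA3 and PCDHA5 stayed under the read minimum, although PCDHA5 is the gene next to PCDHA6. In the beta cluster PCDHB2 held 42.5% (38.8 to 43.9%), followed by PCDHB10 with 15.6%, PCDHB5 with 10.2% and PCDHB14 with 7.47%, in the same order in every library. In the gamma cluster PCDHGB6 held 27.1%, PCDHGC3 24.1%, PCDHGB4 19.2% and PCDHGB7 10.9%, and PCDHGB6 and PCDHGC3 exchanged places between libraries. The lowest Spearman correlation of gene levels between any pair of libraries was 0.936 in the alpha, 0.941 in the beta and 0.934 in the gamma cluster, over 15, 16 and 22 genes, which is a description across genes that share one cell line.

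**Figure D4:**
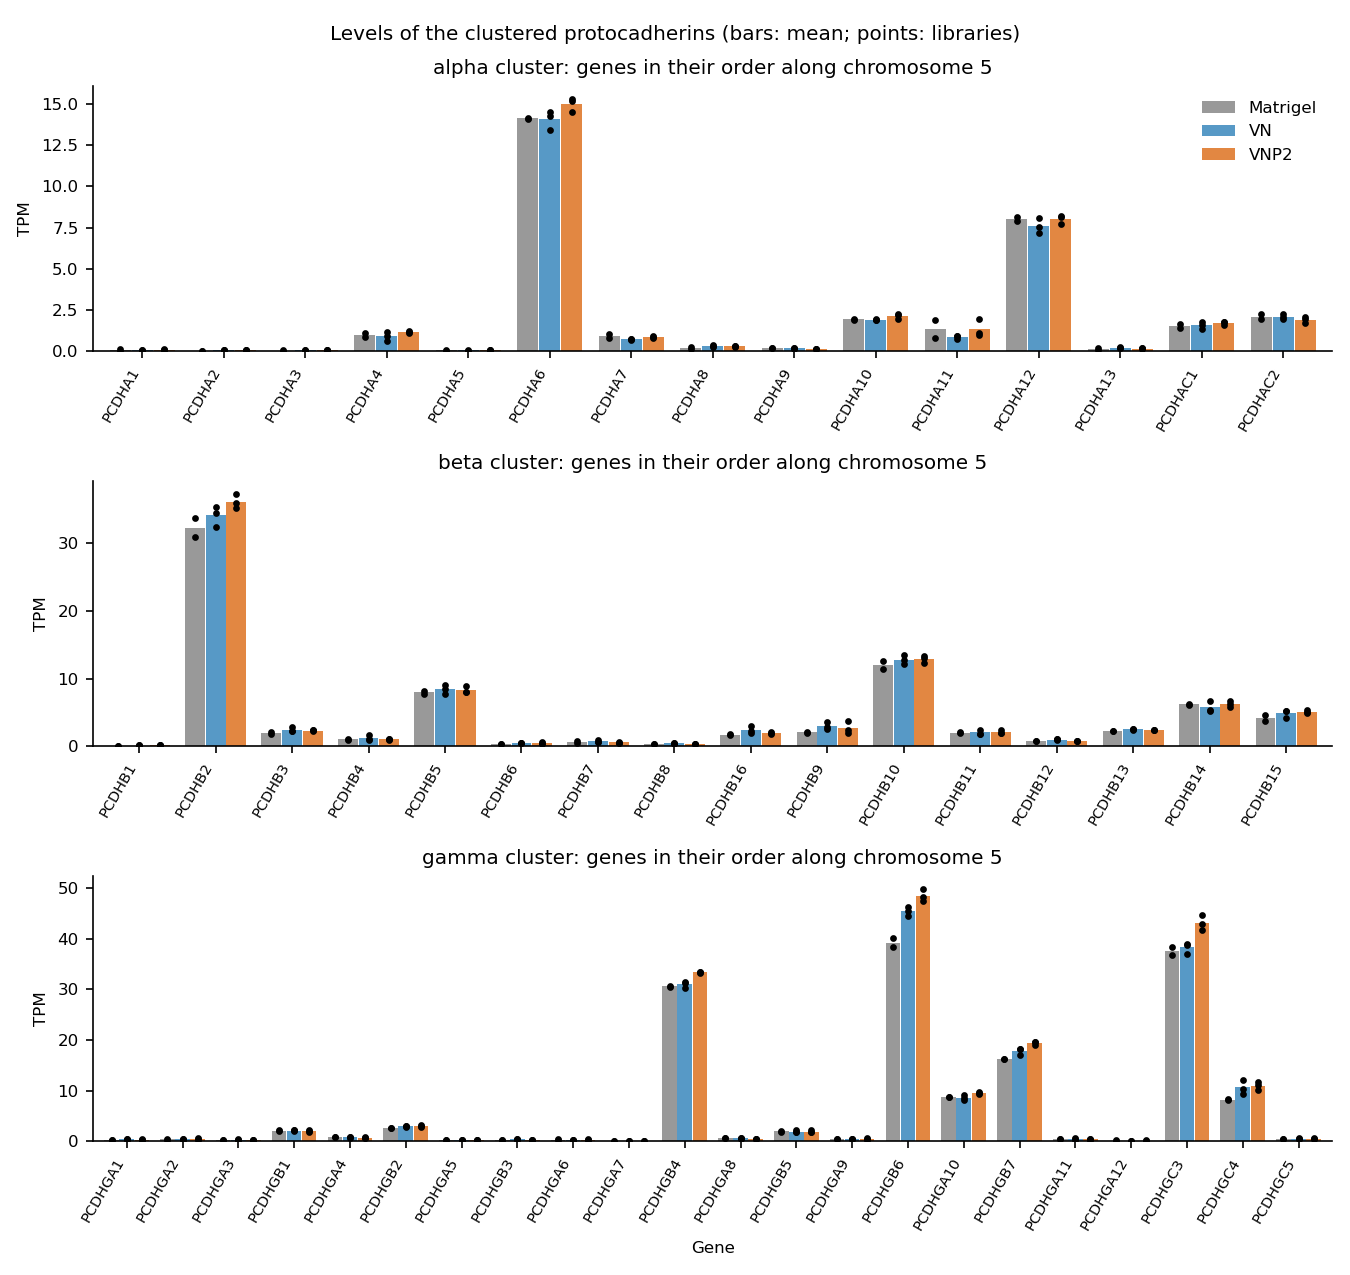
TPM (y axes) of every alpha, beta and gamma gene in its order along chromosome 5, as the mean on each coating (bars) with the libraries as points. PCDHA6 and PCDHA12, PCDHB2, and PCDHGB4, PCDHGB6 and PCDHGC3 stand out on all 3 coatings, while many other genes of each cluster are near 0.

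Promoters of clustered protocadherins carry a conserved element around the letters CGCT. It is shown here for abundant genes and for genes of the same cluster that were far lower. RefSeq promoters (GRCh38.p14, 250 bases before to 50 after the start) were given for 47 clustered genes of the family, and windows of 22 bases on the plus strand, which is the coding strand, are printed 5′ to 3′ with CGCT in capitals.
PCDHA6 (chr5:140827899-140827920): gagccgcatgatgtCGCTgtct
PCDHA8 (chr5:140841132-140841153): aagccacatgatgtCGCTgtct
PCDHB2 (chr5:141094546-141094567): gagacgcggggtggCGCTgcag
PCDHB12 (chr5:141208645-141208666): gagacgcgtggtggCGCTgcag
PCDHGB4 (chr5:141387619-141387640): ctgactctgggcgcCGCTgttg
PCDHGB5 (chr5:141397865-141397886): ctgactctgggcgcCGCTgttg
PCDHGA9 (chr5:141402716-141402737): aggactctgagcgcCGCTgttg
PCDHGA10 (chr5:141412933-141412954): aggactctgagcgcCGCTgttc
The windows of PCDHGB4 and PCDHGB5 were identical, whereas the genes had mean levels of 31.8 and 1.92 TPM. PCDHGA9 and PCDHGA10 differed at 1 base, with 0.462 and 8.98 TPM. PCDHB2 and PCDHB12 differed at 1 base, with 34.5 and 0.839 TPM, and PCDHA6 and PCDHA8 at 2 bases, with 14.5 and 0.26 TPM. PCDHA6 and its neighbour PCDHA5 differed at 6 bases, with 14.5 and 0.0314 TPM. The pairs were chosen to hold an abundant gene and a far lower one, so their differences in level were set by that choice. They do not show how window and level relate over all genes. In each gene the window nearest to its cluster's consensus was taken, a choice that itself favours a close match. Of 46 windows, 41 matched it at 15 or more of the 22 bases: 6 of 8 genes at 10 TPM or more, 15 of 17 genes from 1 to under 10 TPM, and 20 of 21 genes under 1 TPM. CGCT itself is common, on either strand in 70% of all 35116 promoters, and it was not found in the window of PCDHA9. The longer letters GATGTCGCT were in 9 of 13 alpha promoters and 0.105% of all promoters, and GGTGGCGCT in 13 of 14 beta promoters and 0.501% of all. Of 20 gamma promoters, 11 held GCCGCTGT and 6 held GTCGCTGT, found in 1.635% and 0.652% of all promoters. Both strands were searched. The letters were chosen after the sequences were seen.

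The summed counts of the gamma cluster rose on VNP2, although most of its genes were not called. Its summed normalised counts were 15697 and 15527 (Matrigel), 16271, 15667 and 15503 (VN) and 17166, 17360 and 17170 (VNP2), with all 3 VNP2 libraries above the others. The log2 fold change of the sum was 0.14 (SE 0.032, adjusted p = 0.0127) on VNP2 against Matrigel and 0.12 (SE 0.029, adjusted p = 0.0341) on VNP2 against VN, whereas on VN against Matrigel it was 0.02 (SE 0.032, adjusted p = 0.752). The call against Matrigel was lost without either Matrigel library, and that against VN was kept only when VN replicate 1 was the library left out. Over the libraries left out, the changes ranged from 0.14 to 0.16 and from 0.11 to 0.15. PCDHGB6, PCDHGC3, PCDHGB4 and PCDHGB7 together held 81.4% of the cluster's TPM. Of its 21 members 2 rose and 1 fell on VNP2 against Matrigel, and 11 had a log2 fold change under 0, with a median of -0.08. For the alpha cluster the sums were 3413 and 3569 (Matrigel), 3375, 3075 and 3116 (VN) and 3493, 3397 and 3516 (VNP2), with a log2 fold change of -0.13 (SE 0.049, adjusted p = 0.101) on VN and -0.01 (SE 0.049, adjusted p = 0.929) on VNP2. For the beta cluster they were 5698 and 5488 (Matrigel), 5648, 5769 and 5766 (VN) and 6052, 5920 and 5673 (VNP2), with 0.03 (SE 0.039, adjusted p = 0.611) and 0.07 (SE 0.039, adjusted p = 0.259). Alpha and beta sums were not called in any comparison.

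Of single gamma genes, PCDHGB6 (chr5:141408021-141512979, plus strand) had normalised counts of 4153 and 4303 (Matrigel), 4790, 4594 and 4478 (VN) and 4971, 5128 and 4864 (VNP2). Its VNP2 libraries lay above all others and its Matrigel libraries below. The log2 fold change was 0.24 (SE 0.043, adjusted p = 0.00352) on VNP2 and 0.13 (SE 0.043, adjusted p = 0.0713) on VN, and the call on VNP2 was kept with any library left out. PCDHGC3 (chr5:141475947-141512979, plus strand), a C-type gene used more evenly across neurons than the others, had counts of 3540 and 3370 (Matrigel), 3444, 3183 and 3331 (VN) and 3773, 3650 and 3906 (VNP2), and its log2 fold change was 0.19 (SE 0.043, adjusted p = 0.0339) on VNP2 against VN. This call was lost without VN replicate 2, VN replicate 3, VNP2 replicate 1 or VNP2 replicate 3, at 0.16 to 0.21. PCDHGB7 and PCDHGA8, chosen after their values were seen, gave 0.19 (SE 0.045, adjusted p = 0.0166) and -0.62 (SE 0.17, adjusted p = 0.0348) on VNP2 against Matrigel. The call of PCDHGB7 was lost in 4 of 5 fits with a library left out and that of PCDHGA8 in all 5, at 0.18 to 0.20 and -0.67 to -0.55. The call of PCDHGA8 was also lost in DESeq2 (-0.61, adjusted p = 0.142), with the replicate number as a block (-0.58, adjusted p = 0.0805) and with no filter on low counts. Transcripts annotated as a lone variable exon held 11.1 to 18.8% of the alpha TPM and 11.6 to 13.8% of the gamma TPM over the libraries. The rest was assigned to spliced transcripts.

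The other genes of the pathway were taken from lists and compared with Matrigel. Of 18 adherens junction partners 17 were tested, and 9 fell on VN and 8 on VNP2 with none rising, at a median log2 fold change of -0.13 on VN and -0.11 on VNP2. Of all genes tested, 9.6% and 9.13% were called lower and 5.66% and 7.44% higher in these comparisons, against which the counts of this and the following lists may be read. VCL (vinculin, which binds alpha-catenin under tension) had -0.63 and -0.68, the receptor phosphatase PTPRM -0.62 and -0.52, and LIMA1, which ties alpha-catenin to actin, -0.51 and -0.47. Of 12 tested catenins and armadillo proteins, 1 rose and 3 fell on VN and 2 rose and 3 fell on VNP2, at a median of -0.05 on VN and 0.00 on VNP2. PKP2, a desmosomal plakophilin, had -0.96 and -1.37, the neural alpha-catenin CTNNA2 0.37 and 0.67, and PKP4 -0.16, not called, and -0.30.

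Of 17 tested desmosomal and atypical cadherins, 1 rose and 5 fell on VN and 4 rose and 5 fell on VNP2, at a median of -0.05 on VN and 0.01 on VNP2. FAT1, a giant cadherin that restrains cell growth, had -0.41 and -0.58, the synaptic CLSTN2 -0.63 and -0.72, and RET, a receptor kinase with cadherin repeats, 0.97, not called, and 1.22. Of 17 tested proteases that process cadherins, 1 rose and 5 fell on VN and 2 rose and 6 fell on VNP2, at a median of -0.13 on VN and -0.15 on VNP2. The sheddase ADAM9 had -0.65 and -0.64, the convertase PCSK5 -0.28 and -0.55, and MMP2 -0.35 and -0.42. ADAM10, the sheddase of CDH2, was not called, at -0.04 and 0.06, and is named after its values were seen.

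Of 9 tested transcription factors that repress CDH1 or switch it for CDH2, 1 rose on VN and 3 on VNP2 and none fell, at a median of 0.08 on VN and 0.25 on VNP2. SNAI1 had 0.41, not called, and 0.59, TWIST1 0.19, not called, and 0.47, and TCF4 0.27 and 0.18, the latter not called. Of the 16 chromatin regulators of the protocadherin clusters, all tested, 2 rose on VN and 6 on VNP2 and none fell, at a median of 0.08 on VN and 0.10 on VNP2. DNMT3B, the methyltransferase that marks clustered promoters in the embryo, had 0.25 and 0.41, DNMT3A 0.17 and 0.23, and the cohesin subunit STAG2 0.07, not called, and 0.20. Of the 16 cytoplasmic partners of protocadherins, 3 rose and 2 fell on VN and 3 rose and 0 fell on VNP2, at a median of -0.05 on VN and -0.03 on VNP2. DAB1, an adaptor of reelin signalling, had 0.32 and 0.32, and the WAVE subunits WASF3 and WASF1 had 0.19 and 0.19 on VN and 0.25 and 0.19 on VNP2.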

How the data were processed

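RNA-seq libraries of H9-derived OPCs on Matrigel (replicates 2 and 3), VN and VNP2 (3 each) were analysed. The authors trimmed reads with Trim Galore and ran Salmon on GENCODE transcripts of GRCh38.p13, and the deposited files hold its estimated counts and TPM per transcript. The authors also deposited a signal, a table of 23350 genes normalised with DESeq2 (1.27.12). Transcripts were matched by identifier to the older GENCODE release 29, which took 205225 of 226608 transcripts and 98.8 to 98.9% of the counts.

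Estimated counts were summed per gene, rounded, and fitted in edgeR 4.0.16 (R 4.3.3) with offsets for average transcript length, TMM normalisation, filterByExpr (minimum count 10, minimum total 15) and all 8 libraries together. Two-sided quasi-likelihood tests were adjusted by Benjamini-Hochberg over 18201 genes. Clusters were summed before a second fit over 18156 genes. The common dispersion was 0.0037, and sampling error limits genes under a count of 100. Median fold changes of all genes lay near 0 in each comparison.

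Members, gene lists and tests were chosen with earlier results of these data known. Values in every library were given for members called in any pair with a mean normalised count of at least 100 (up to 12, by fold change), the 5 most abundant, and CDH1, CDH2, CDH6, CDH11, CDH13, PCDH7, PCDH9, PCDH15 and PCDH17. Of each list the 3 called genes with the largest change were named, and any other gene was chosen after its values were seen. Alternatives were DESeq2 1.42.0, RLE normalisation, no length offsets, no filter, a minimum of 50 counts per library, a replicate block, the libraries of the pair alone, limma 3.58.1 on the authors' table (pseudocount 1), and each library left out in turn.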

Additional observations from a re-analysis of the deposited data

How the results depend on the processing

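Across the tools, filters and normalisations, 12 to 19 members were called on VN against Matrigel, 12 to 19 on VNP2 against Matrigel and 5 to 8 on VNP2 against VN, and no called member turned its direction. Members with a mean count of at least 100, an alternative chosen after the data were seen, gave the lowest counts. Leaving out 1 library gave 7 to 20, 9 to 15 and 5 to 8 calls, the lowest against Matrigel without Matrigel replicate 2. With 1 Matrigel library, its spread is assumed to equal that of the other coatings. The fold change of the gamma cluster ranged from 0.14 to 0.16 (VNP2 against Matrigel) and from 0.11 to 0.15 (VNP2 against VN) over the libraries left out, and its call against VN was lost in the fit of that pair alone (0.12, adjusted p = 0.0609). The alpha cluster ranged from -0.17 to -0.10 on VN against Matrigel and from 0.10 to 0.17 on VNP2 against VN, and passed the threshold in both without VN replicate 1. Without length offsets the beta cluster had 0.078 on VN against Matrigel (adjusted p = 0.206). These causes were not tested.

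Same-numbered libraries showed no clear shared deviation, with correlations of -0.052 to 0.026. With so few libraries per coating, these values cannot decide whether equal numbers mark paired samples. Over all genes, the fit with the replicate number as a block called 3389 on VN against Matrigel, and 2778 were called without it. For VNP2 against Matrigel these counts were 3170 and 3016, and for VNP2 against VN 1146 and 928. A fit with the replicate block called 15, 15 and 7 members, 15, 15 and 6 of them shared with the fit without it, lost PCDH8 on VN and PCDH20 and PCDHGA8 on VNP2 against Matrigel, and gave the alpha cluster -0.15 on VN against Matrigel (adjusted p = 0.0398). It changed no other call of a cluster sum. Depth limits the 28 members under 1 TPM, whose calls rest on few counts.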
